A study of Homo sapiens with 6 samples.

Results

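The miRNAs described here are made from hairpins that lie inside introns of GABRA3 and GABRE, the genes of the α3 and ε subunits of the GABA-A receptor, a chloride channel opened by the neurotransmitter GABA. They were chosen by name: hsa-miR-105-5p, hsa-miR-105-3p, hsa-miR-767-5p and hsa-miR-767-3p from GABRA3, and hsa-miR-224-5p, hsa-miR-452-5p and hsa-miR-452-3p from GABRE, named below without the species prefix. Of these 7 mature miRNAs, 6 had a row among the 1596 miRNAs of the count table, and miR-452-3p was not analysed here. Small RNA had been sequenced from a human melanoma cell line after 24 h with RSL3 combined with IFN-γ (3 libraries) or with RSL3 alone (3 libraries). RSL3 inactivates GPX4, the enzyme that removes lipid peroxides, and so sets off ferroptosis, and IFN-γ is a cytokine that T cells release. All 6 libraries carry RSL3, so the comparison asks how the miRNAs differed when IFN-γ was added to RSL3, and it contains neither untreated cells nor cells given IFN-γ alone. The sample labels name the line A2058, whereas the study's text names A375 for the same experiment. Both are established melanoma lines. Each group is 1 line, and the labels do not say whether replicates were grown as separate cultures. The p-values therefore reflect library-to-library spread, part or all of which could be technical.

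A miRNA hairpin is cut into a 5p and a 3p arm, and the arm that is loaded into Argonaute pairs with target mRNAs mainly through its seed, bases 2 to 8. An intronic miRNA on the strand of its host gene can be made from the host's transcript, and 2 hairpins in 1 intron can come from the same precursor RNA. GABRA3 belongs to the genes of chromosome X that are silent in most adult tissues and are switched on in many melanomas when their DNA loses methylation, and its intronic miR-105 and miR-767 are known to be switched on with it. miR-767-5p is known to repress TET1 and TET3, enzymes that oxidise 5-methylcytosine. miR-224 and miR-452 are known as a pair that is often raised in tumours together with GABRE.

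The mature sequences are shown to let the arms be compared by seed, since none of the 6 measured members shares its seed with another. They are those of RefSeq on GRCh38.p14, 5′ to 3′, with the seed in capitals, and all 7 names had a match. 
miR-105-5p: uCAAAUGCucagacuccuguggu
miR-105-3p: aCGGAUGUuugagcaugugcua
miR-767-5p: uGCACCAUgguugucugagcaug
miR-767-3p: uCUGCUCAuaccccaugguuucu
miR-224-5p: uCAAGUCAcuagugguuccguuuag
miR-452-5p: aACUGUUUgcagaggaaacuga
All lie on the minus strand of chromosome X. miR-105-5p is encoded at both chrX:152392265-152392287 (MIR105-1) and chrX:152394458-152394480 (MIR105-2), miR-767-5p at chrX:152393481-152393503, miR-224-5p at chrX:151958628-151958652 and miR-452-5p at chrX:151959678-151959699. The MIR105-1 and MIR105-2 hairpins, 81 bases each, differed at 2 bases and both of their mature arms are the same, so the reads of miR-105 cannot be assigned to either copy. Laid on a member without gaps and with starts at most 2 bases apart, no other RefSeq mature miRNA lay within 3 mismatches. Likeness at larger shifts was not searched.

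The seed of miR-767-5p occurs as a run of 7 bases in the 3 members of the miR-29 family, shifted by 1 base, and is shown there in capitals because miR-29 is also known to repress TET enzymes.
miR-29a-3p: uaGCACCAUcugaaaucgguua
miR-29b-3p: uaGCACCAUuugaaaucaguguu
miR-29c-3p: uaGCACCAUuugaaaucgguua
In the miR-29 sequences the run covers bases 3 to 9. Laid without gaps on either MIR105 hairpin, miR-767-5p matched 20 of its 23 bases. Of the 23 positions, matched or not, 17 lay over miR-105-3p. miR-767-3p matched 16 of 23 bases on MIR105-1 and 15 of 23 on MIR105-2. For miR-452-5p, miR-4676-3p was the only miRNA of the table with the same seed, and it held at most 1.75 CPM (counts-per-million) in any library.

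In the GENCODE 29 annotation of GRCh38, MIR105-1, MIR767 and MIR105-2 stand in this order of coordinates, the reverse of the direction of transcription, in intron 1 of the GABRA3 transcript GABRA3-201, an intron of 86549 bases, with gaps of 1122 and 883 bases between neighbours. MIR224 and MIR452 lie 970 bases apart in intron 6 of GABRE-201, an intron of 3978 bases, and both are also inside an exon of the retained-intron transcript GABRE-209. Each of the 5 hairpins lies on the strand of its host gene. The MIR452 and MIR105-1 hairpins, which face each other across the gap between the clusters, are 432507 bases apart.

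The libraries held 4383940 to 5367150 counts in the group given RSL3 combined with IFN-γ (the combined treatment group) and 4897890 to 6513382 in the group given RSL3 alone (the RSL3 monotreatment group). Between 62.4% and 71.4% of a library went to its 10 most abundant miRNAs. Levels are given in CPM after scaling by the trimmed mean of M-values (TMM), whose factors were 0.944 to 1.33 in the combined treatment group and 0.861 to 0.913 in the monotreatment group. Of the melanocyte and melanoma miRNAs listed as a check of the cell type, 4 were abundant enough to be tested and 3 were nearly absent (miR-509-3p at 1.11 CPM, miR-508-3p at 0.54 CPM and miR-506-3p at 0.31 CPM over all libraries, with miR-508-3p at 0 in each combined treatment library). The list was led by miR-146a-5p at 114777 CPM in the combined treatment group and 100175 CPM in the monotreatment group. miR-211-5p, which TRPM1, a gene of melanocytes, hosts, followed at 335.3 CPM in the combined treatment group and 286.3 CPM in the monotreatment group. The other 2 tested were lower in the combined treatment group. miR-204-5p had 169.7 CPM there, against 286.2 CPM in the monotreatment group (edgeR adjusted p = 0.0750). miR-514a-3p had 24.3 CPM there, against 63.8 CPM in the monotreatment group (edgeR adjusted p = 0.0374). The 7 blood-cell miRNAs summed to 103 to 369 CPM in the combined treatment libraries and 118 to 183 CPM in the monotreatment libraries, most of it miR-451a of red blood cells. The 4 epithelial miRNAs summed to 81.5 to 102 CPM in the combined treatment libraries and 87.5 to 130 CPM in the monotreatment libraries. No listed miRNA was at 0 in all libraries, no blood or epithelial miRNA passed the test, and their part in the results below was not tested.

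By level, the 3 most abundant members all came from GABRA3. miR-105-5p was the most abundant member, with a mean of 268.7 CPM over the 6 libraries, and ranked 140 of 1596 miRNAs. miR-767-5p followed at 170.8 CPM (rank 168) and miR-105-3p at 39.2 CPM (rank 295). These levels placed miR-105-5p at rank 8 and miR-767-5p at rank 12 of 89 miRNAs that RefSeq placed on chromosome X and nowhere else. miRNAs also encoded on other chromosomes were left out, as were those without a RefSeq match, which 1425 of the 1596 had. The other members were low, with miR-767-3p at 7.73 CPM, miR-452-5p at 5.61 CPM and miR-224-5p at 4.07 CPM. In this order miR-105-5p and miR-767-5p overlapped over the 6 libraries, although miR-105-5p had more reads than miR-767-5p in each of them, and the 3 low members overlapped one another. miR-105-3p overlapped with neither of its neighbours in the order. Summed over the measured members, the GABRA3 miRNAs had 33.1, 50.2 and 37.6 times the reads of miR-224-5p and miR-452-5p from GABRE in the combined treatment libraries and 85.2, 67.4 and 56.8 times in the monotreatment libraries. These ratios did not overlap between the groups, but they rest on 29 to 78 GABRE reads a library. Of the GABRE miRNAs, miR-452-5p separated the groups and miR-224-5p overlapped. Ratios of this kind were not computed for other miRNAs.

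**Figure D1:**
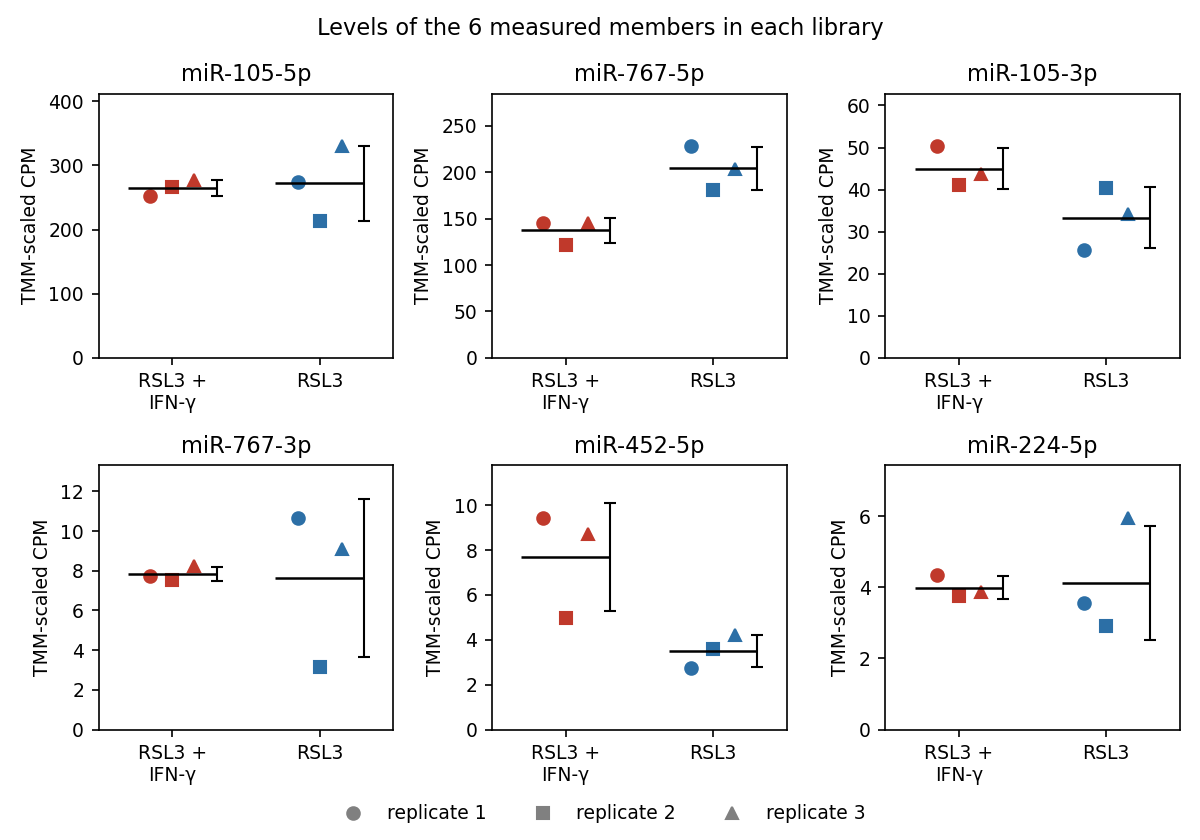
Levels of the 6 measured members in TMM-scaled CPM, with each library as a point whose shape gives its replicate number, red for RSL3 combined with IFN-γ and blue for RSL3, and the group mean and SD (n = 3) as lines. The points of miR-767-5p lie lower and those of miR-452-5p and miR-105-3p higher in the combined treatment group with no overlap, while miR-105-5p, miR-767-3p and miR-224-5p overlap.

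None of the 6 members passed edgeR's quasi-likelihood test at an adjusted p under 0.05. Over all 758 miRNAs tested 19 rose (2.51%) and 17 fell (2.24%), together 4.75%. Without monotreatment replicate 1, where 810 miRNAs were tested, edgeR called 0 (124 at an unadjusted p under 0.05). These fits did not pair libraries by replicate number. With that pairing fitted as a replicate block, 39 of the 758 rose and 43 fell, and again no member passed. The lowest edgeR adjusted p of a member with the block was 0.0896, for miR-767-5p. At an unadjusted p under 0.05 stood 2 members, miR-452-5p and miR-767-5p, against 196 of the 758 miRNAs (25.9%). In 3 members the groups did not overlap, against 226 of 758 (29.8%). Lack of overlap was therefore common among all miRNAs. The median log2 fold change, RSL3 combined with IFN-γ over RSL3, was −0.0043 over the 6 members and −0.04 over all tested miRNAs. Scaling by library totals alone moved the median of all tested miRNAs to 0.33, so changes under that scaling are also given relative to it.

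The GABRA3 miRNAs were led by miR-105-5p, which did not differ beyond the spread of the libraries. It had 1042, 1563 and 1715 reads, or 251.8, 267.0 and 276.9 CPM, in the combined treatment libraries 1 to 3, against 1387, 951 and 1884 reads, or 273.7, 212.7 and 329.8 CPM, in the monotreatment libraries. The monotreatment libraries stood on both sides of all the combined treatment libraries, so the groups overlapped. Means were 265.3 ± 12.6 CPM in the combined treatment group and 272.1 ± 58.6 CPM in the monotreatment group (SD, n = 3 each), with a log2 fold change of −0.04 (SE 0.23, 95% interval −0.55 to 0.48, edgeR adjusted p = 0.925). The coefficient of variation was 4.76% in the combined treatment group and 21.5% in the monotreatment group, where counting noise alone would give 2.64% and 2.67%. Across the 125 tested miRNAs at 100 to 1000 CPM its median was 18.6% and 19.2%, so the monotreatment spread of miR-105-5p was near that of other miRNAs of its level and the combined treatment spread was below it.

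miR-105-3p, the less abundant arm of the same hairpins, had higher values in the combined treatment group. Its reads were 208, 240 and 271 in that group, against 130, 180 and 195 in the monotreatment group. In CPM it had 50.3, 41.0 and 43.8 after the combined treatment and 25.7, 40.3 and 34.1 after RSL3 alone. The groups did not overlap, but their replicates 2 stood side by side. The log2 fold change was 0.43 (SE 0.26, 95% interval −0.14 to 1.00), which did not pass the test (edgeR adjusted p = 0.310).

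miR-767-5p was lower in every combined treatment library than in any monotreatment library. It had 602, 713 and 898 reads in the combined treatment libraries and 1155, 809 and 1164 reads in the monotreatment libraries. Scaled, these were 145.5, 121.8 and 145.0 CPM in the combined treatment group, against 227.9, 180.9 and 203.8 CPM in the monotreatment group, with means of 137.4 ± 13.5 and 204.2 ± 23.5 CPM (SD, n = 3 each). The highest combined treatment library was thus below the lowest monotreatment library. The log2 fold change of −0.57 (SE 0.22, 95% interval −1.06 to −0.09) reached an unadjusted p of 0.0249 but not the threshold after adjustment over all tested miRNAs (edgeR adjusted p = 0.141). The separation of the groups depended on the scaling. With library totals alone they overlapped, although the combined treatment library was lower in each of the 3 pairs of the same replicate number, at 137.3 to 167.3 CPM in the combined treatment group and 165.2 to 196.2 CPM in the monotreatment group, and the log2 fold change was −0.21, or −0.55 relative to the median of all miRNAs under that scaling.

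miR-767-3p was low and unevenly spread. Its reads were 32, 44 and 51 in the combined treatment libraries, against 54, 14 and 52 in the monotreatment libraries, where replicate 2 stood far below the other two. The means were 7.83 ± 0.37 CPM in the combined treatment group and 7.63 ± 3.97 CPM in the monotreatment group (SD, n = 3 each). With a log2 fold change of 0.03 (SE 0.43, 95% interval −0.93 to 0.98, edgeR adjusted p = 0.968) the interval ran from 0.527-fold to 1.97-fold. Without monotreatment replicate 2 the log2 fold change was −0.35, and so of the other sign.

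miR-452-5p, made in GABRE, had the largest difference of the 6 members. It had 39, 29 and 54 reads in the combined treatment libraries and 14, 16 and 24 in the monotreatment libraries. In CPM these were 9.43, 4.95 and 8.72 after the combined treatment, against 2.76, 3.58 and 4.20 after RSL3 alone. All combined treatment libraries were higher than all monotreatment libraries, with replicate 2 of the combined treatment group closest to them. Means were 7.70 ± 2.40 and 3.51 ± 0.72 CPM (SD, n = 3 each), a 2.17-fold difference (95% interval 1.16 to 4.05). At an unadjusted p of 0.0199 it did not pass after adjustment (edgeR adjusted p = 0.127). Scaling by library totals alone was the one alternative under which it passed, at a log2 fold change of 1.45 against 1.12 with TMM (edgeR adjusted p = 0.0469), which is 1.11 relative to the median of all miRNAs under that scaling. With library totals 60 of all 758 tested miRNAs rose and 11 fell.

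miR-224-5p, its neighbour in the intron, overlapped between the groups. Its reads were 18, 22 and 24 in the combined treatment group, against 18, 13 and 34 in the monotreatment group, at means of 3.99 ± 0.31 CPM and 4.14 ± 1.60 CPM (SD, n = 3 each). The monotreatment group held both the highest and the lowest library. The log2 fold change was −0.07 (SE 0.43, 95% interval −1.02 to 0.89, edgeR adjusted p = 0.926). Of its other arm, miR-224-3p, 2 reads were counted in combined treatment replicate 2 and 0 in every other library, where 3 reads would be 0.461 to 0.684 CPM by library totals. This arm was too low to be tested. A count of 0 limits the level and does not show absence, and such limits and the intervals of read shares cover counting error only.

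**Figure D2:**
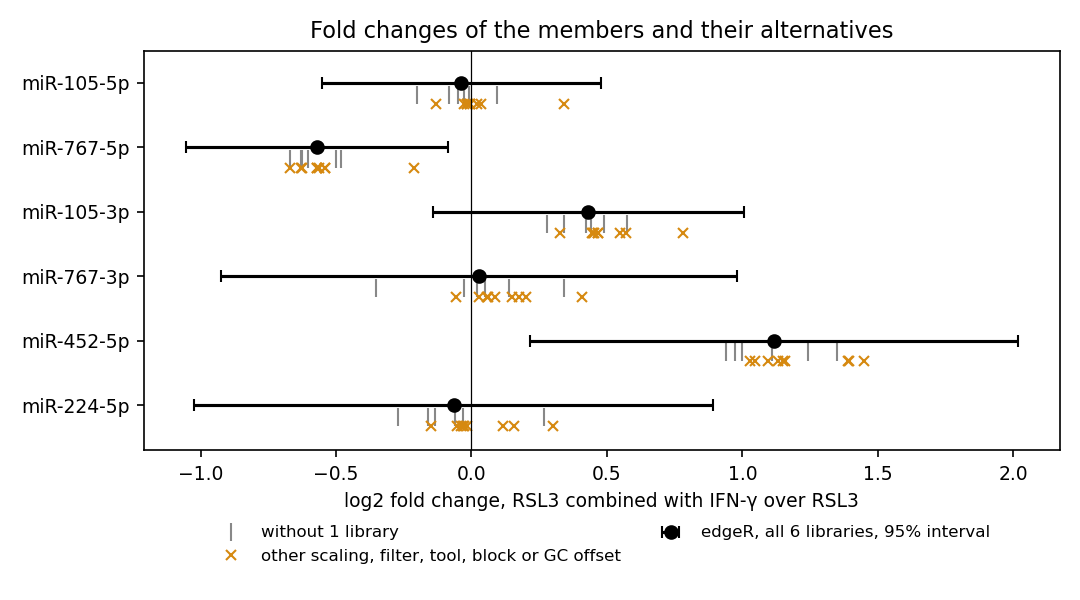
The log2 fold change of each member, RSL3 combined with IFN-γ over RSL3, with its 95% interval from edgeR over all 6 libraries (black), without 1 library at a time (grey ticks) and with another scaling, filter, tool, replicate block or GC offset (orange crosses). miR-767-5p stays below 0 and miR-452-5p and miR-105-3p above 0 at every mark, while the marks of miR-105-5p, miR-767-3p and miR-224-5p fall on both sides of 0, and the marks with library totals alone carry a shift of 0.33 in the median of all miRNAs.

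Set out as loci, the GABRA3 intron gave 455.5 ± 18.2 CPM in the combined treatment group and 517.2 ± 72.1 CPM in the monotreatment group, and these sums overlapped. For the GABRE intron they were 11.7 ± 2.65 CPM and 7.65 ± 2.17 CPM (SD, n = 3 each), which also overlapped. With library totals alone the GABRE sums did not overlap, at 11.6 to 14.5 CPM in the combined treatment group and 5.44 to 8.90 CPM in the monotreatment group. The ratio of the 5p arms of cluster mates within a library does not depend on how libraries are scaled. miR-767-5p had 0.578, 0.456 and 0.524 reads for each read of miR-105-5p in the combined treatment libraries, against 0.833, 0.851 and 0.618 in the monotreatment libraries. Its geometric mean was 0.517 after the combined treatment and 0.759 after RSL3 alone, a difference of −0.55 on the log2 scale with no overlap. miR-452-5p had 2.14, 1.31 and 2.22 reads for each read of miR-224-5p in the combined treatment libraries, and 0.784, 1.22 and 0.710 in the monotreatment libraries. Here the geometric means were 1.84 and 0.879, a log2 difference of 1.06, again with no overlap, and replicate 2 of each group was the closest to the other group. Both ratios gave a two-sided exact permutation p of 0.1, which is the smallest that 3 libraries against 3 allow and remained 0.1 after adjustment over the 2 ratios, so the design could not reach 0.05. Ratios of other miRNA pairs were not computed, so how common such separation is among ratios is not known here.

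The arms of a hairpin were compared in the same way. The 3p arm took 16.6%, 13.3% and 13.6% of the miR-105 reads in the combined treatment libraries, against 8.57%, 15.9% and 9.38% in the monotreatment libraries. Monotreatment replicate 2 lay among the combined treatment libraries, and the other two below them. The log2 ratio of 3p to 5p differed by 0.47 (SE 0.39, 95% interval −0.43 to 1.36), which limma did not call over 181 hairpins with both arms (adjusted p = 0.532). For miR-767 the 3p arm took 5.05%, 5.81% and 5.37% of the reads in the combined treatment libraries and 4.47%, 1.70% and 4.28% in the monotreatment libraries. These shares did not overlap, but the exact 95% intervals of combined treatment replicate 1 (3.48% to 7.05%) and monotreatment replicate 1 (3.37% to 5.79%) did. The log2 ratio differed by 0.78 (SE 0.45, 95% interval −0.24 to 1.80, limma adjusted p = 0.381), and by 0.33 without monotreatment replicate 2. limma called 0 of the 181 hairpins (0%), with 35 (19.3%) at an unadjusted p under 0.05. Lack of overlap in arm shares was not counted over the 181. Both hairpins were mostly read from the 5p arm, as were 102 of the 181, and ranked 58 (miR-105) and 43 (miR-767) from the lowest share of 3p reads.

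**Figure D3:**
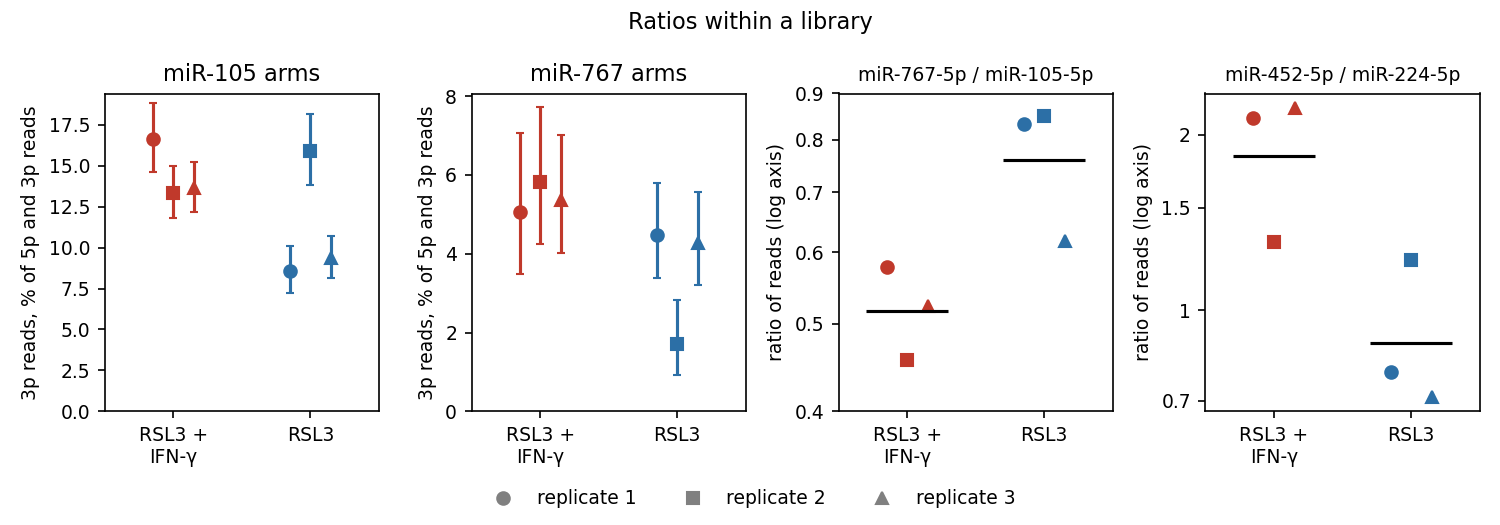
Ratios of reads within each library, red for RSL3 combined with IFN-γ and blue for RSL3: the 3p share of miR-105 and miR-767 reads in percent with exact 95% intervals, and, on log axes, miR-767-5p over miR-105-5p and miR-452-5p over miR-224-5p with geometric means as lines. The cluster-mate ratios do not overlap between the groups (0.456 to 0.578 against 0.618 to 0.851, and 1.31 to 2.22 against 0.710 to 1.22), whereas the miR-105 arm shares do. Ratios of other miRNA pairs were not computed.

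The patterns of the members over the 6 libraries were compared with those of 470 other miRNAs at 10 CPM or more, by Pearson's r of log2 CPM. These coefficients are descriptions over 6 libraries that share their scaling and fall into 2 treatment groups. miR-767-5p was most like miR-199b-5p (r = 0.994), miR-17-5p (r = 0.993) and miR-103a-3p (r = 0.986), and 51 miRNAs had an r of 0.9 or more with it. The 3 named were chosen by likeness to miR-767-5p over these same libraries, so their being lower in the combined treatment group follows from the choice. Their log2 fold changes were −1.67 for miR-199b-5p, −0.99 for miR-17-5p and −0.84 for miR-103a-3p. Of these, miR-199b-5p fell by the test (edgeR adjusted p = 0.0145). That call was lost without combined treatment replicate 2 or 3 or monotreatment replicate 1 (edgeR adjusted p = 0.0515, 0.0507 and 0.0877). miR-105-5p was most like miR-26b-5p (r = 0.931), miR-107 (r = 0.913) and miR-181a-3p (r = 0.904), the only 3 at 0.9 or more, which like it were low in monotreatment replicate 2 and high in replicate 3. miR-105-3p was most like miR-769-3p (r = 0.948), miR-874-3p (r = 0.933) and miR-320b (r = 0.920), with 5 at 0.9 or more.

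Among the members themselves, r took both high positive and strongly negative values within GABRA3 and between the hosts. It was 0.81 between miR-105-5p and miR-767-3p, 0.20 between the 5p arms of miR-105 and miR-767 and 0.24 between miR-452-5p and miR-224-5p. Between miR-105-3p and miR-767-5p, both from GABRA3, it was −0.80. Across the introns it was 0.86 between miR-105-5p and miR-224-5p, 0.85 between miR-105-3p and miR-452-5p and −0.70 between miR-767-5p and miR-452-5p. The arms of a hairpin had r = −0.34 for miR-105 and 0.12 for miR-767. The low members rest on as few as 13 reads in a library, so that counting noise enters the coefficients of those members.

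Other miRNAs near the clusters were counted from lists. Of the miRNAs listed by name for the Xq27 to Xq28 region, 11 were in the table and 2 could be tested. The list does not cover every miRNA of that region, which holds the testis-rich miR-506 to miR-514 cluster as well. miR-514a-3p, a member of that cluster expressed in melanocytes and melanoma, fell to 24.3 ± 8.60 CPM in the combined treatment group, against 63.8 ± 13.0 CPM in the monotreatment group (SD, n = 3 each; log2 fold change −1.38, edgeR adjusted p = 0.0374). miR-509-3-5p did not pass, with a log2 fold change of −1.57 (edgeR adjusted p = 0.145). RefSeq placed 38 tested miRNAs outside the members on chromosome X and nowhere else, those 2 included. Of the 38, 0 rose and 3 fell, and 35 did not pass. miR-652-5p (log2 fold change −2.02, edgeR adjusted p = 0.0363) and miR-651-5p (−1.57, edgeR adjusted p = 0.0394) fell beside miR-514a-3p. Each of these 3 calls was lost without combined treatment replicate 2 or 3 or monotreatment replicate 1, at edgeR adjusted p of 0.0774 to 0.202, and those of miR-514a-3p and miR-651-5p also without monotreatment replicate 3 (edgeR adjusted p = 0.0824 and 0.0887). After removal of the trend with GC content, which is described last, miR-652-5p still passed, and miR-514a-3p and miR-651-5p had log2 fold changes of −0.92 and −0.86 (edgeR adjusted p = 0.113 and 0.138). With library totals alone these 2 also did not pass (edgeR adjusted p = 0.108 and 0.0694), nor did miR-651-5p with limma-voom (adjusted p = 0.0519). The most abundant, miR-221-3p and miR-222-3p, had log2 fold changes of 0.05 and 0.13 and did not pass. The median over the 38 was −0.29, against −0.0043 over the members, and no test was made between them.

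The miR-29 family, with the seed run of miR-767-5p, had 3 tested members and none passed. miR-29a-3p averaged 4483 CPM in the combined treatment group and 4284 CPM in the monotreatment group, miR-29b-3p 1890 and 1158 CPM and miR-29c-3p 16.2 and 11.2 CPM. Their log2 fold changes were 0.07, 0.71 and 0.54, so that miR-29a-3p and miR-29b-3p stood above miR-767-5p (137.4 and 204.2 CPM) in both groups.

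**Figure D4:**
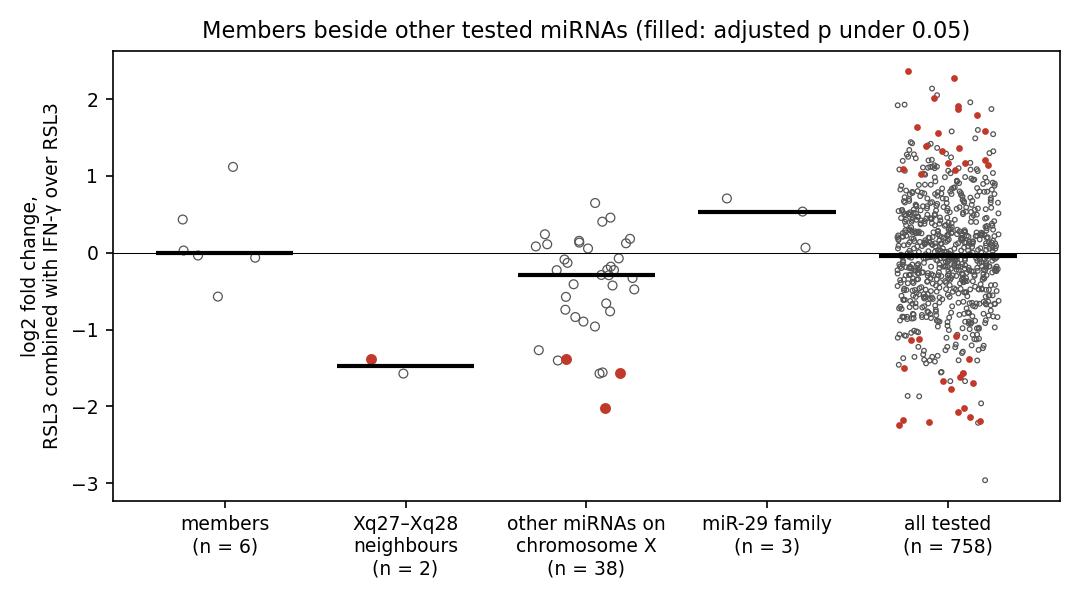
The log2 fold change, RSL3 combined with IFN-γ over RSL3, of each tested miRNA (points, spread sideways at random), filled in red where edgeR's adjusted p was under 0.05, with medians as bars. The 6 members lie between −0.57 and 1.12 with no filled point. The tested Xq27 to Xq28 neighbours are also counted among the other miRNAs placed on chromosome X only, of which 3 of 38 are filled, all below 0.

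GC content of the miRNA moved with the comparison, and was not tested as a cause. Over 679 tested miRNAs with a RefSeq sequence, the Spearman correlation of the log2 fold change with GC content was 0.469, across miRNAs, which are not independent replicates. The median log2 fold change was −0.29 for the 315 below 50% GC and 0.23 for the 364 others. Of the members, only miR-767-5p, with negative values, was above 50% (52.2%), and miR-452-5p, with positive ones, was the lowest (40.9%). With the GC trend removed, the log2 fold changes were −0.63 for miR-767-5p and 1.40 for miR-452-5p.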

How the data were processed

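Groups were taken from the treatment in the sample labels. The authors made the libraries with a small RNA kit per the labels (a directional RNA kit in the study's text) and counted reads per mature miRNA, with GRCh38, bcl2fastq, edgeR and Bowtie 1.1.1 listed in the submitters' processing notes. For reads that fit more than 1 miRNA, the counting rule is not stated in these sources. The deposited table holds raw counts and normalized values, of which the raw counts were used, besides p-values and fold changes computed by the authors, which were left aside. The tests across miRNAs used edgeR 4.0.16 under R 4.3.3 (quasi-likelihood, TMM, two-sided, minimum count 10, minimum total 15) over the whole table, with Benjamini-Hochberg adjustment and calls at 0.05. Arm ratios, with 0.5 reads added and both arms averaging at least 10 reads, were tested with limma 3.58.1, after tests on simulated data. Ratios of cluster mates were compared by two-sided exact permutation with 0.5 reads added, and read shares carry exact (Clopper-Pearson) 95% intervals. Host introns come from GENCODE 29. Alternatives were other scalings, filters, DESeq2 1.42.0, limma-voom, a replicate block, a GC offset and leaving out each library.

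The members and lists were chosen with earlier results of these data known. Named miRNAs are the members, their other arms, the 3 miRNAs most like each member of at least 10 CPM, and up to 4 per list, the most abundant first and any called. Of the melanocyte and melanoma list all 7 are named. The groups use the same replicate numbers. Same-numbered libraries deviated together (correlations of 0.227, 0.217 and 0.207 across miRNAs, each above 0.1), which was taken as pairing from the data, since neither the labels nor the study says what a number stands for. The main tests did not use this pairing, which was fitted only among the alternatives.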

Additional observations from a re-analysis of the deposited data

How the results depend on the processing

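Of the members, 1 passed the test under 1 of the 15 alternatives, miR-452-5p at a log2 fold change of 1.45 with library totals alone (1.11 relative to the median of all tested miRNAs, which was 0.33 there). Under that scaling 60 of all 758 tested miRNAs rose and 11 fell. miR-105-3p (0.28 to 0.78, the upper end with library totals, or 0.45 relative to that median), miR-767-5p (−0.67 to −0.21, adjusted p 0.0896 to 0.604) and miR-452-5p (0.94 to 1.45, adjusted p 0.0469 to 0.385) kept their direction under all 15. Library totals gave 0.34 for miR-105-5p and 0.30 for miR-224-5p, and upper-quartile factors −0.057 for miR-767-3p. These shifts were shared by all miRNAs, and relative to the median under each scaling (0.33 and −0.13) the values were 0.0089, −0.034 and 0.076, against 0.0010, −0.028 and 0.066 with TMM, so these scalings turned no sign relative to the median. With the GC trend removed, and with the replicate block as well, miR-105-5p had 0.021 and 0.035 and miR-224-5p 0.12 and 0.16. Without 1 library at a time the ranges were −0.20 to 0.10 for miR-105-5p (positive without monotreatment replicate 3), −0.27 to 0.27 for miR-224-5p (positive without monotreatment replicate 3, at 0.27), −0.35 to 0.34 for miR-767-3p (−0.03 without combined treatment replicate 3), 0.28 to 0.58 for miR-105-3p, −0.67 to −0.48 for miR-767-5p and 0.94 to 1.35 for miR-452-5p. Without monotreatment replicate 1, 0 members were left at an unadjusted p under 0.05. The miR-105 and miR-767 arm ratios ranged from 0.27 to 0.78 and from 0.33 to 1.02, the log2 ratio of miR-767-5p to miR-105-5p from −0.70 to −0.46, and that of miR-452-5p to miR-224-5p from 0.91 to 1.31.

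Of all 758 tested miRNAs, 19 rose and 17 fell with the reported settings, against 60 and 11 with library totals alone and 52 and 43 with DESeq2. With no filter on low counts, where 1596 miRNAs were tested, 50 rose and 56 fell. With the replicate block, which fits the pairing of libraries by number, 39 rose and 43 fell and no call of a member changed, and with the GC trend removed as well 14 rose and 9 fell. Leaving out 1 library, which also changed how many miRNAs were tested, gave 0 to 45 that rose and 0 to 50 that fell. The lowest were 0 and 0 of 810 without monotreatment replicate 1 (124 at an unadjusted p under 0.05 in edgeR). The highest were 45 and 50 of 815 without combined treatment replicate 1. With 5 reads added to each arm, limma called 5 hairpins with a higher 3p share and none with a lower. The cause of these shifts was not tested. Within replicate numbers the exact permutation p of both cluster-mate ratios was 0.25, the smallest that 3 pairs allow. Depth limits miR-767-3p, miR-224-5p and miR-452-5p, with 13 to 54 reads a library, where counting alone gives coefficients of variation of 15.4% to 23.6%.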
